A study of Mus musculus with 7 samples.

Results

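The genes examined here were the neurotrophins brain-derived neurotrophic factor (Bdnf) and neurotrophin 3 (Ntf3), the neurotrophin receptors Ntrk2, Ntrk3 and Ngfr, the secreted peptide precursor Vgf, and the neuronal pentraxins Nptx1, Nptx2 and Nptxr. They were chosen by symbol, 9 of the 24346 genes listed in the expression table. All 9 symbols were found, and 8 of them passed the minimum of 1 FPKM (sequenced fragments scaled to transcript length and to the mapped total of the library) on average over the animals that was required for a test. Bulk RNA of the cerebral cortex had been sequenced at postnatal day 100 in males of 2 genotypes, with 1 library per animal: 4 CrT-/y mice, and 3 CrT+/y mice as wild-type littermates. In CrT-/y males the only copy of Slc6a8, the X-linked gene for the creatine transporter, lacks exons 5 to 7 in every cell of the body. Both groups had the C57BL/6J background, and the labels name no treatment. A limit of bulk RNA is that all neurons, glia and vascular cells of the cortex contributed to each value. Fewer cells of a type and less RNA per cell therefore cannot be told apart.

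Neurotrophins are secreted proteins that keep neurons alive and adjust their synapses. BDNF acts mainly through TrkB, the product of Ntrk2, and NT-3 through TrkC, the product of Ntrk3, while p75NTR, the product of Ngfr, binds all neurotrophins and with higher affinity their uncleaved precursors. In the cortex Bdnf is made mostly by excitatory neurons, and its transcription, like that of Vgf and Nptx2, rises with neuronal activity. The neuronal pentraxins NPTX1 and NPTX2 are secreted, form complexes with the membrane-bound neuronal pentraxin receptor NPTXR and gather AMPA-type glutamate receptors at excitatory synapses, with NPTX2 best known at the synapses that excitatory neurons make on parvalbumin interneurons.

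Bdnf is transcribed from several start sites, and those that respond to activity are known to be driven by CREB, a transcription factor that binds cAMP response elements. The stretch before a start is therefore shown for 2 of the 7 Bdnf start sites in RefSeq (GRCm38.p6, chromosome 2, plus strand), each as the 250 bases that end just before the start. The first is the start nearest to the 5′ end of the gene, and the second is the only 1 of the 7 that held any of the 4 motifs searched, with the match TCACGTCA in capitals.

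Bdnf start at 109674700, chr2:109674450-109674699: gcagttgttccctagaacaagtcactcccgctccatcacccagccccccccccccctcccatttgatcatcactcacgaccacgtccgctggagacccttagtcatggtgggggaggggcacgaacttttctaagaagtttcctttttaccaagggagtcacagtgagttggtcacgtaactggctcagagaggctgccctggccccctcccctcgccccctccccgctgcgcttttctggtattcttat
Bdnf start at 109692436, chr2:109692186-109692435: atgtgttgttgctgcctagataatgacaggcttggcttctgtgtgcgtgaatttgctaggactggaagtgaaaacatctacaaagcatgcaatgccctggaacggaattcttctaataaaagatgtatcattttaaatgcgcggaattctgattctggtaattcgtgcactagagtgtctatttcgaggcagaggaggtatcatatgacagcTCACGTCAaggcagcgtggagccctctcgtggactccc

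The motifs were searched on both strands. The full cAMP response element TGACGTCA was found in 1.55% of the 32851 RefSeq start windows of this length, the variant TCACGTCA in 0.35%, its half-site TGACG in 17.8% and the E-box CACGTG in 6.02%. In the second Bdnf sequence the variant began 38 bases before the start, and the half-site found there lies inside it on the other strand. Of the other members, Ntf3 had 2 windows, and Ntrk2 and Ngfr 1 each. One of the Ntf3 windows, before the start at 126166744 on chromosome 6, held CACGTG, and no other match was found in these windows. No window was matched for Ntrk3, Vgf, Nptx1, Nptx2 or Nptxr. A match is a run of letters, and the expression table has 1 value per gene, so the output of single start sites of Bdnf could not be separated.

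The targeted gene was examined first. Slc6a8 was at 12.4, 14.9, 14.7 and 15.7 FPKM in CrT-/y animals 0 to 3 and at 32.3, 29.6 and 28.0 FPKM in CrT+/y animals 1 to 3, a log2 fold change of -1.05 ± 0.087 (SE; limma, adjusted p = 0.00238), in the direction of the labels in all 7 animals. All listed markers of excitatory neurons and of interneurons were above 0 FPKM in every animal. CrT+/y animal 2 stood apart in its choroid plexus and ependyma markers, whose summed level was 403 FPKM there and 9.03 to 56.2 FPKM in the other 6 animals, most of it from Ttr, the carrier of thyroid hormone made by the choroid plexus. Summed striatal markers ranged from 166 to 377 FPKM in CrT-/y and from 87.4 to 328 FPKM in CrT+/y animals, and summed olfactory bulb markers from 7.88 to 20.3 FPKM and from 4.07 to 8.83 FPKM. Depth could not be read from FPKM values, which had 17207 to 17821 genes above 0 per animal. Over the 12988 tested genes, 1318 (10.1%) were differentially expressed (DEGs, limma, adjusted p under 0.1), 941 (7.25%) lower and 377 (2.90%) higher in CrT-/y. The share of higher genes among the DEGs was 28.6% and became 48.8% after quantile normalization, 61.5% after upper quartile scaling, 48.2% after median centring and 46.5% after a correction for transcript length.

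Bdnf was the single member that passed the test, and it was lower in the CrT-/y cortex. Of the 8 tested members, 1 was called lower, beside 7.25% of all tested genes, and 0 were called higher, beside 2.90%. Without a filter on low values, where all 9 members entered the fit, the counts were also 1 and 0. Of the other tested members, Ntrk2, Ntrk3, Vgf, Nptx1, Nptx2 and Nptxr had lower mean levels in CrT-/y without passing the test, and Ntf3 a higher one. The median log2 fold change of the 8 was -0.13, beside -0.03 over all tested genes. Without CrT-/y animal 1, CrT+/y animal 1 or CrT+/y animal 2, 0 members were called. Without CrT-/y animal 3, Nptx2 was called in place of Bdnf.

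**Figure D1:**
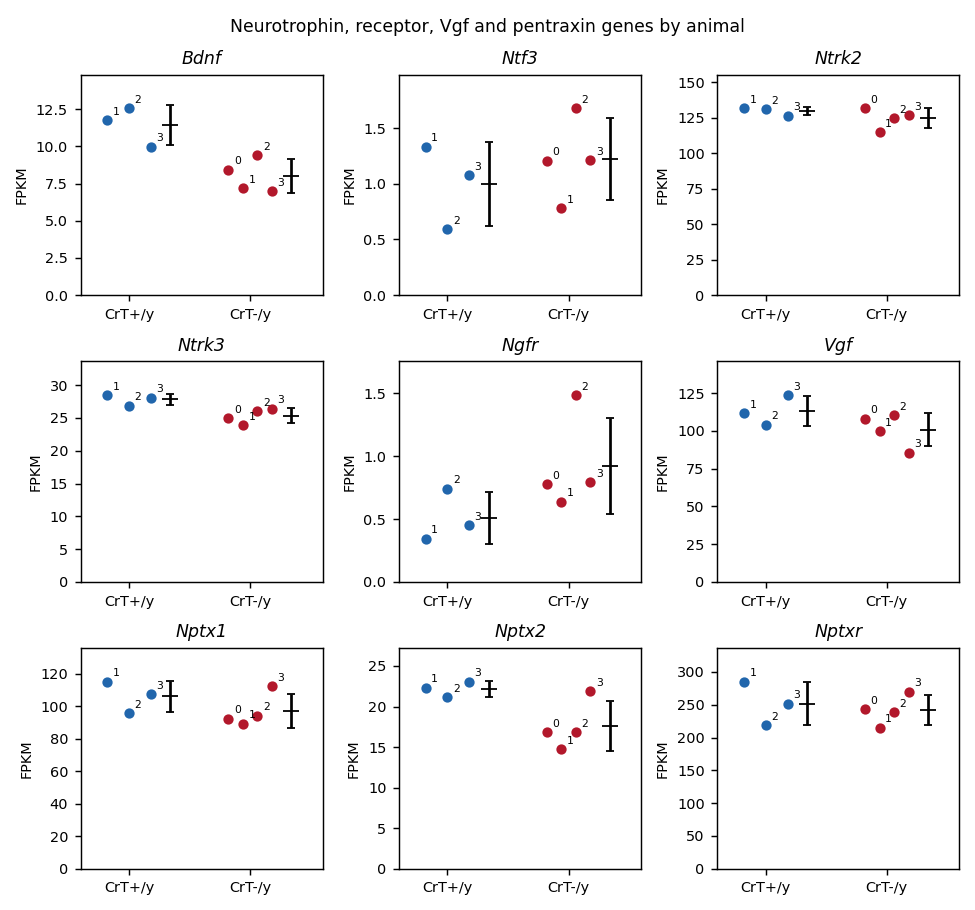
FPKM of each of the 9 genes (y axis, from 0) in the 3 CrT+/y (blue) and 4 CrT-/y animals (red), with each point numbered by the animal's replicate number and mean ± SD in black beside it. The groups do not overlap for Bdnf, with CrT-/y animals at 7.01 to 9.42 FPKM and CrT+/y animals at 9.98 to 12.6 FPKM, and for Ntrk3; the groups overlap for the other 7 genes.

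Bdnf, on chromosome 2 from 109674700 to 109727007 (GRCm38, plus strand), encodes the precursor of BDNF. It was at 8.45, 7.20, 9.42 and 7.01 FPKM in CrT-/y animals 0 to 3 and at 11.7, 12.6 and 9.98 FPKM in CrT+/y animals 1 to 3. The 2 groups did not overlap, though the highest of the first and the lowest of the second lay close together. The mean was 8.02 ± 1.13 FPKM (SD, n = 4) against 11.4 ± 1.33 FPKM (SD, n = 3), 70.1% of the CrT+/y mean. On the log2 scale the difference was -0.51 ± 0.119 (SE), with a 95% interval from -0.78 to -0.24 (limma, adjusted p = 0.0539), the 166th lowest value among all tested genes. The exact two-sided permutation test over the 35 assignments of the animals gave p = 0.0571, where 0.0286 is the smallest it can give.

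The direction of the Bdnf difference held under each setting tried, and its call did not. With another pseudocount, filter, scaling, weighting, length correction or block the log2 fold change stayed between -0.54 and -0.45, with limma adjusted p from 0.0455 to 0.0923. A threshold of 0.05 in place of 0.1 ended the call in the fit as reported. Leaving out 1 animal at a time gave -0.60 to -0.44. The adjusted p was then 0.149 without CrT-/y animal 1, 0.125 without CrT-/y animal 3, 0.146 without CrT+/y animal 1 and 0.119 without CrT+/y animal 2, each past the threshold. GENCODE places an antisense gene, Gm45346, over exons of Bdnf. That gene has no row in the table, and the strand setting of the counting is not given in the sources used here, so reads from either could not be told apart.

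Several cell type, region and activity markers were set beside the Bdnf levels. Of 8 excitatory neuron markers, 8 had a log2 fold change below 0 and 2 were called lower, Neurod6 among them. Over all tested genes 58.2% had a log2 fold change below 0 and 7.25% were called lower. The summed level of the 8 markers was 1557 to 1691 FPKM in CrT-/y and 1581 to 1926 FPKM in CrT+/y animals. Their part in the Bdnf difference was not tested. The 2 animals with the highest striatal sums, CrT-/y animal 1 with 377 FPKM and CrT+/y animal 2 with 328 FPKM, had 7.20 and 12.6 FPKM of Bdnf, and the part of striatal tissue in the Bdnf difference was not tested. The summed immediate early genes were at 454, 631, 811 and 531 FPKM in CrT-/y animals 0 to 3 and at 612, 945 and 751 FPKM in CrT+/y animals 1 to 3. In each genotype the animal with the highest sum, CrT-/y animal 2 and CrT+/y animal 2, also had the highest Bdnf, whereas the lowest sums were not in the animals with the lowest Bdnf.

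Ntf3, on chromosome 6 from 126101412 to 126166910 (minus strand), encodes NT-3, the main ligand of TrkC. It was near the minimum for a test, at 1.21, 0.781, 1.68 and 1.21 FPKM in CrT-/y and 1.33, 0.593 and 1.08 FPKM in CrT+/y animals. The groups overlapped, and CrT+/y animal 2 was the lowest of all 7. The log2 fold change was 0.28 ± 0.299 (SE), with a 95% interval from -0.39 to 0.96 (limma, adjusted p = 0.591), wide enough to hold a change in either direction. Without CrT+/y animal 2 it was -0.02.

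The receptors differed widely in level. Ntrk2, on chromosome 13 from 58806569 to 59133970 (plus strand), was at 131, 115, 125 and 127 FPKM in CrT-/y and at 132, 131 and 126 FPKM in CrT+/y animals. The groups overlapped, and CrT-/y animal 1 was the lowest. The difference was -0.06 ± 0.0585 (SE) on the log2 scale, with a 95% interval from -0.19 to 0.07 (limma, adjusted p = 0.555). The value covers the full-length receptor and the truncated forms without a kinase, which are known to be frequent in astrocytes, together.

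Ntrk3, on chromosome 7 from 78175959 to 78738012 (minus strand), was at 25.0, 23.9, 26.1 and 26.4 FPKM in CrT-/y and at 28.5, 26.9 and 28.1 FPKM in CrT+/y animals. It was the other member whose groups did not overlap, so that in 2 of 8 tested members all CrT-/y values lay under all CrT+/y values, beside 15.0% of all tested genes. The gap was small next to that of Bdnf, 25.3 ± 1.14 (SD, n = 4) against 27.8 ± 0.831 FPKM (SD, n = 3). The log2 fold change of -0.14 ± 0.0562 (SE), with a 95% interval from -0.26 to -0.01, did not pass the test over all genes (limma, adjusted p = 0.178).

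Ngfr, on chromosome 11 from 95568818 to 95587735 (minus strand), had the lowest level of the 9. It was at 0.777, 0.638, 1.49 and 0.794 FPKM in CrT-/y and at 0.342, 0.741 and 0.450 FPKM in CrT+/y animals. The groups overlapped through CrT+/y animal 2, and CrT-/y animal 2 was the highest by far. The difference in mean log2 level was 0.73 and was not tested in the main fit because of the low level. In the fits with lower minimums, the limma adjusted p was 0.203 at a mean of at least 0.1 FPKM and 0.256 with no filter.

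Vgf, on chromosome 5 from 137026392 to 137033351 (plus strand), encodes a precursor of several secreted peptides that is stored in dense core vesicles and is induced by neurotrophins. It was at 108, 99.8, 110 and 85.6 FPKM in CrT-/y and at 112, 104 and 124 FPKM in CrT+/y animals. CrT-/y animal 3 was the lowest, and the groups overlapped through CrT+/y animal 2. The log2 fold change was -0.17 ± 0.0954 (SE), with a 95% interval from -0.38 to 0.04 (limma, adjusted p = 0.295). CrT-/y animal 3 was thus lowest of its group in both Vgf and Bdnf, the 2 members for which CrT-/y animal 1 was not the lowest.

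**Figure D2:**
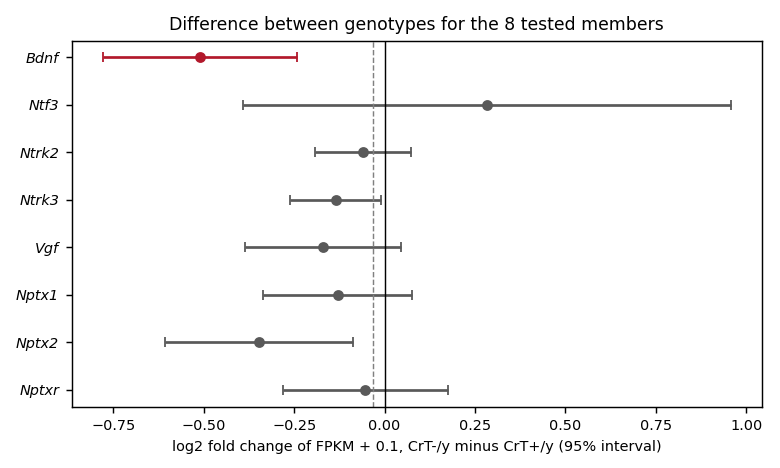
Log2 fold change between genotypes with its 95% interval (x axis, log2 of FPKM + 0.1, CrT-/y minus CrT+/y) for the 8 tested genes, with the called gene in red, a solid line at 0 and a dashed line at the median of all tested genes, -0.03. The intervals of Bdnf, Nptx2 and Ntrk3 lie wholly below 0, and Bdnf alone passed the adjusted threshold.

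Among the pentraxins, Nptx2 had the largest difference. It lies on chromosome 5 from 144545902 to 144557478 (plus strand) and was at 16.8, 14.8, 16.9 and 21.9 FPKM in CrT-/y and at 22.3, 21.2 and 23.0 FPKM in CrT+/y animals. CrT-/y animals 0 to 2 were below all CrT+/y animals, and CrT-/y animal 3 lay among them. The mean was 17.6 ± 3.03 FPKM (SD, n = 4) against 22.2 ± 0.940 FPKM (SD, n = 3), 79.3% of the CrT+/y mean. The log2 fold change of -0.35 ± 0.116 (SE), with a 95% interval from -0.61 to -0.09, fell short of the threshold (limma, adjusted p = 0.116). It was called without CrT-/y animal 3 (-0.46, limma adjusted p = 0.0654) and with a minimum of 5 FPKM (limma adjusted p = 0.0994).

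Pvalb, which marks the interneurons where NPTX2 is best known to act, was at 31.3, 20.9, 18.0 and 40.4 FPKM in CrT-/y and at 37.3, 30.7 and 48.9 FPKM in CrT+/y animals, with overlapping groups (log2 fold change -0.54, limma adjusted p = 0.235). CrT-/y animal 3 had the highest level of its group in both Pvalb and Nptx2, and CrT+/y animals 3 and 2 the highest and the lowest of theirs in both, while the lowest CrT-/y animal was animal 2 for Pvalb and animal 1 for Nptx2. Whether the 2 genes vary together was not tested.

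Nptx1, on chromosome 11 from 119538719 to 119547753 (minus strand), was at 92.3, 89.1, 94.1 and 112 FPKM in CrT-/y and at 115, 95.7 and 107 FPKM in CrT+/y animals. The groups overlapped, again through CrT-/y animal 3. The log2 fold change was -0.13 ± 0.0914 (SE), with a 95% interval from -0.34 to 0.08 (limma, adjusted p = 0.405).

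Nptxr, on chromosome 15 from 79786351 to 79804766 (minus strand), had the highest level of the 9. It was at 243, 215, 239 and 270 FPKM in CrT-/y and at 285, 219 and 252 FPKM in CrT+/y animals, with groups that overlapped over most of their range. The log2 fold change of -0.05 ± 0.101 (SE), with a 95% interval from -0.28 to 0.17 (limma, adjusted p = 0.773), turned to values just above 0 under upper quartile scaling and the correction for transcript length, as did that of Ntrk2. The value of Nptxr is uncertain because exons of Npcd overlap it on the same strand, and the counting could split reads between them. Npcd was at 36.0, 49.8, 29.6 and 28.5 FPKM in CrT-/y and at 29.4, 22.3 and 19.9 FPKM in CrT+/y animals (log2 fold change 0.57, limma adjusted p = 0.120).

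The levels of the 9 genes kept nearly the same order in every animal. FPKM are per length of transcript, so they can be set side by side, and the order from the highest was Nptxr, Ntrk2, Vgf, Nptx1, Ntrk3, Nptx2, Bdnf, Ntf3 and Ngfr. Vgf and Nptx1 changed places in CrT-/y animal 3 and CrT+/y animal 1, and Ntf3 and Ngfr in CrT+/y animal 2, so these neighbours did not differ beyond their spread. Ntrk2 was above Vgf within each animal, although their ranges over the 7 animals overlapped. Among the tested genes, Nptxr was 211th, Ntrk2 522nd and Bdnf 7176th from the highest.

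Deviations of each gene from its own mean showed which animals were the lowest and the highest of each group. CrT-/y animal 1 was the lowest of its group in 7 of 9 genes and CrT+/y animal 2 in 6 of 9. The same count over all tested genes was not made. CrT-/y animal 3 was the highest of its group in Ntrk3, Nptx1, Nptx2 and Nptxr. Within the CrT-/y group the 3 pentraxin genes thus shared their lowest animal, 1, and their highest animal, 3, while Bdnf was low in both of these animals. The spread was smallest for Ntrk2 and Ntrk3, with coefficients of variation of 2.19% to 5.64%, and largest for the weakly expressed Ntf3 and Ngfr, with 30.1% to 41.3%.

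**Figure D3:**
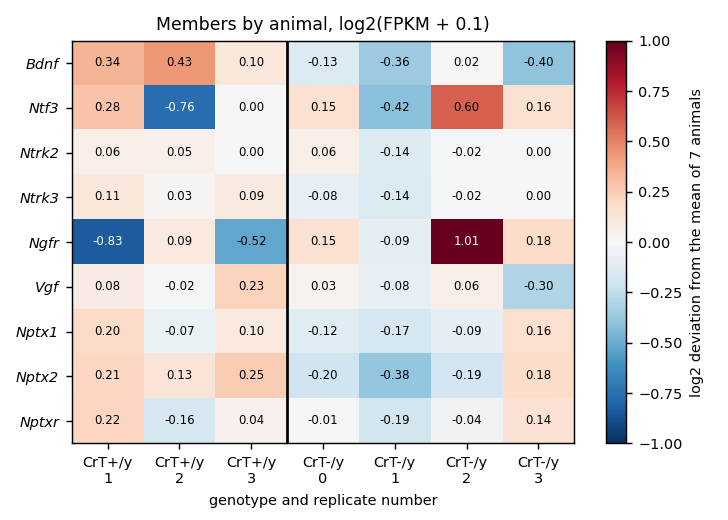
Deviation of each gene (rows) in each animal (columns) from its mean over the 7 animals, as log2 of FPKM + 0.1, on a color scale from -1 (blue) to 1 (red) with the value printed in each cell. The Bdnf row is at -0.40 to 0.02 in CrT-/y and at 0.10 to 0.43 in CrT+/y animals, and the largest deviations are those of Ngfr and Ntf3, the genes of lowest level.

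Ratios within an animal remove a factor that is common to both genes. The Bdnf to Ntrk2 ratio, ligand to receptor, was 0.0643, 0.0627, 0.0756 and 0.0553 in CrT-/y and 0.0893, 0.0962 and 0.0790 in CrT+/y animals, without overlap. Ntrk2 varied little, with coefficients of variation of 5.64% in CrT-/y and 2.19% in CrT+/y animals, so this ratio largely repeats the Bdnf levels. The Nptx2 to Nptx1 ratio was 0.166 to 0.195 in CrT-/y and 0.194 to 0.221 in CrT+/y animals, and the groups overlapped. The groups also overlapped for Ntrk3 to Ntrk2, Nptx1 to Nptxr, Nptx2 to Nptxr, Bdnf to Vgf and Bdnf to Ntf3.

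The genes whose log2 profile over the 7 animals came nearest to that of each member were found by root mean square distance. For Bdnf they were Spred3, Fam57a and Mettl3 at distances of 0.0775, 0.0783 and 0.0824, and for Nptx2 they were Nqo2, Cdh7 and Igfbp7 at 0.0684, 0.0690 and 0.0740. For Ntrk3 they were Srgap3, Arhgef11 and Pdik1l at 0.0125, 0.0180 and 0.0208. The other lists were Pcdh20, A330069E16Rik and 2700046G09Rik for Ntf3, Mrps31, 2610002M06Rik and Slc2a13 for Ntrk2, Zfp759, Aimp2 and Slit3 for Vgf, Gabbr2, 1700001L19Rik and Ptprk for Nptx1, and S1pr3, Mkx and Srd5a3 for Nptxr. No member was among the 3 nearest genes of another. Among the pentraxins, Nptx1 was the 18th nearest gene to Nptxr, and Nptxr the 32nd nearest to Nptx1. Nptx1 was the 135th nearest to Nptx2, and Nptxr the 1260th. Counted from the other side, Nptx2 was the 2636th nearest to Nptx1 and the 6793rd nearest to Nptxr. The ranks depend on the side, but the distance of a pair does not. It was 0.0641 between Nptx1 and Nptxr, 0.135 between Nptx1 and Nptx2, and 0.183 between Nptx2 and Nptxr.

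**Figure D4:**
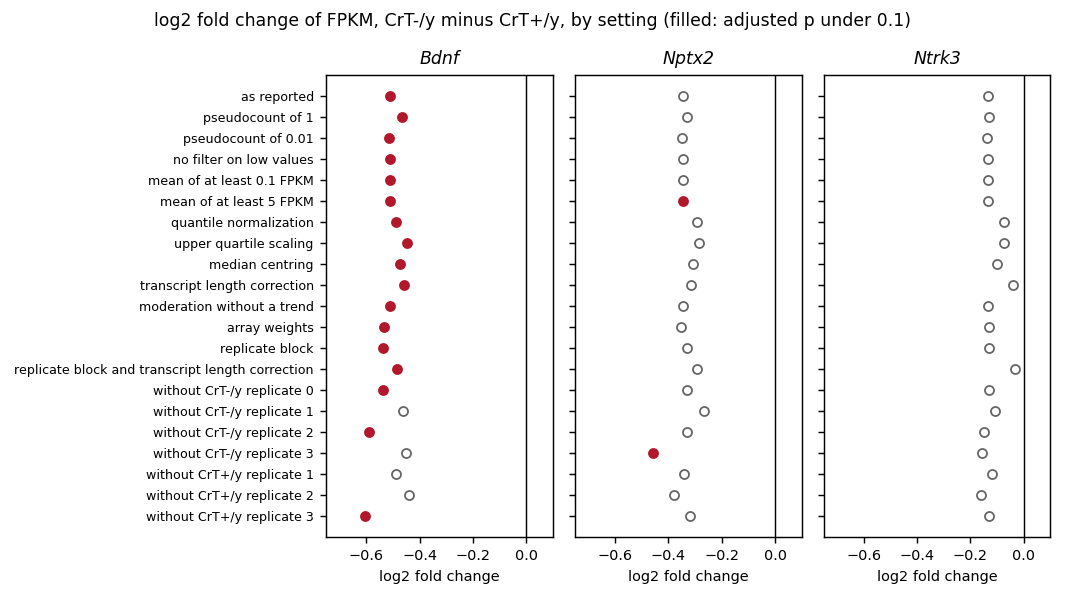
Log2 fold change between genotypes (x axis, CrT-/y minus CrT+/y) of Bdnf, Nptx2 and Ntrk3 as reported and under each alternative setting (rows), with filled red points where the limma adjusted p was under 0.1 and open points elsewhere. All points lie below 0; Bdnf stays between -0.60 and -0.44 and is open in 4 of the rows that leave out 1 animal, and Nptx2 is filled in 2 rows.

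The rest of the pathway was read from lists of its genes. Of 10 other neurotrophin ligands and receptors, 8 were tested and 0 were called in either direction, with a median log2 fold change of -0.13. In 2 of the 8 the groups did not overlap, beside 21.6% of all tested genes. Sorcs2, a sorting receptor that joins p75NTR in binding proneurotrophins, came nearest to a call, at 13.6 ± 0.448 FPKM (SD, n = 4) against 11.4 ± 1.30 FPKM (SD, n = 3) with no overlap (log2 fold change 0.26, limma adjusted p = 0.102). Lingo1, a partner of p75NTR in the Nogo receptor complex, was at 128 ± 2.95 against 157 ± 25.6 FPKM, also with no overlap (-0.29, limma adjusted p = 0.113). Both were called with a minimum of 5 FPKM, with array weights and without CrT+/y animal 3, and Sorcs2 also under each other scaling and the length correction.

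In the fit as reported, none of the genes for processing and release of proneurotrophins passed the test, with 12 of 17 tested, 0 called and a median of 0.06. The 3 with the smallest p were Furin, a protease that cleaves proneurotrophins inside the cell, with a log2 fold change of 0.16 (limma adjusted p = 0.154), Serpini1, an inhibitor of tissue plasminogen activator, with 0.15 (limma adjusted p = 0.166), and Plat, that activator itself, with 0.21 (limma adjusted p = 0.175). In 5 of the 12 tested genes the groups did not overlap, beside 21.6% of all tested genes. The CrT-/y animals were all above the CrT+/y animals for Furin and Serpini1. Both were called higher under upper quartile scaling and the length correction, Serpini1 also under quantile normalization and Furin without CrT+/y animal 3.

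Downstream of the Trk receptors, 44 of 44 listed signalling genes were tested, 5 fell and 2 rose, beside 10.1% called in either direction over all genes, and the median was -0.09. Shc3, an adaptor of Trk receptors found mainly in neurons, fell from 34.5 ± 2.39 (SD, n = 3) to 26.0 ± 2.06 FPKM (SD, n = 4), a log2 fold change of -0.41 (limma adjusted p = 0.0334). Shc2, a related adaptor, rose (0.31, limma adjusted p = 0.0553), as did the adaptor Frs3 (0.27, limma adjusted p = 0.0714). The kinases Rps6ka2 (-0.24, limma adjusted p = 0.0417) and Akt2 (-0.25, limma adjusted p = 0.0674) fell, and so did Pik3ca, a catalytic subunit of PI3 kinase that lies outside the rule for naming genes. Each of these 6 calls was lost without CrT+/y animal 1, and also without CrT-/y animal 1. Those of Akt2 and Pik3ca were lost under each other scaling and the length correction as well.

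Creb1, which encodes CREB, was in this list and in that of transcriptional regulators of Bdnf, where 21 of 22 genes were tested and it was the only one called. It was at 11.1, 11.0, 10.6 and 11.0 FPKM in CrT-/y and at 14.9, 14.5 and 12.1 FPKM in CrT+/y animals, with no overlap (log2 fold change -0.33 ± 0.0768, SE; limma adjusted p = 0.0538). The call was lost when any 1 animal other than CrT+/y animal 3 was left out. It was also lost under the replicate block, both alone (limma adjusted p = 0.111) and with the length correction (limma adjusted p = 0.138). Crem, a relative of Creb1, had a log2 fold change of -0.27 (limma adjusted p = 0.116), and Crebbp, the coactivator of CREB, had -0.26 (limma adjusted p = 0.124).

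Of 20 immediate early genes, which neurons switch on within minutes of activity, 2 fell and 0 rose, with a median of -0.11, beside 7.25% called lower and 2.90% called higher over all genes. Egr3 was at 45.1, 44.4, 47.5 and 46.7 FPKM in CrT-/y and at 76.6, 74.5 and 66.3 FPKM in CrT+/y animals (log2 fold change -0.65, limma adjusted p = 0.00466). Homer1, whose short activity-induced form is not separated from the long ones by these values, was at 43.5 ± 2.66 (SD, n = 4) against 72.2 ± 12.3 FPKM (SD, n = 3), a log2 fold change of -0.72 (limma adjusted p = 0.0253). Both were called under each alternative, every omission of 1 animal included. The next smallest p was that of Dusp6 (-0.32, limma adjusted p = 0.205).

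Other secreted and dense core vesicle genes moved in both directions. Of 24 tested, 3 fell and 2 rose, beside 7.25% and 2.90% over all genes, and the median was 0.02. Cck, a neuropeptide of cortical neurons, was at 551 ± 29.5 (SD, n = 4) against 748 ± 104 FPKM (SD, n = 3), a log2 fold change of -0.43 (limma adjusted p = 0.0499). The secreted synaptic proteins Lgi1 (-0.27, limma adjusted p = 0.0417) and Cbln2 (-0.33, limma adjusted p = 0.0482) fell as well. The neuropeptide genes Pdyn (0.54, limma adjusted p = 0.0640) and Cartpt (0.75, limma adjusted p = 0.0699) rose, both of which the striatum also expresses. Summed striatal markers were highest in CrT-/y animal 1 and lowest in CrT+/y animal 1, and their part in these differences was not tested. Each of these 5 calls was lost when CrT-/y animal 1, CrT-/y animal 2 or CrT+/y animal 1 was left out. That of Cartpt was lost on omission of any animal other than CrT+/y animal 3, and with moderation without a trend. With no filter on low values the calls of Cartpt and Pdyn were lost. Under the replicate block those of Cck, Lgi1 and Cbln2 were lost.

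Of 11 relatives and binding partners of the pentraxins, 8 were tested, 2 fell and 0 rose, with a median of -0.10, beside 7.25% called lower over all genes. Both that fell encode AMPA receptor subunits, which the pentraxins gather. The subunit genes Gria1 and Gria2, also in this list, were not called in either direction. Gria4, prominent in parvalbumin interneurons, was at 34.9 ± 0.647 (SD, n = 4) against 39.3 ± 1.43 FPKM (SD, n = 3), a log2 fold change of -0.17 (limma adjusted p = 0.0898). Gria3 was at 69.6 ± 2.62 against 81.8 ± 5.68 FPKM (-0.23, limma adjusted p = 0.0685). Both calls were lost under each of quantile normalization, upper quartile scaling, median centring and the length correction, and when any 1 animal other than CrT+/y animal 3 was left out. Adam17, a protease that sheds NPTXR from the membrane, had a log2 fold change of -0.25 (limma adjusted p = 0.231).

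**Figure D5:**
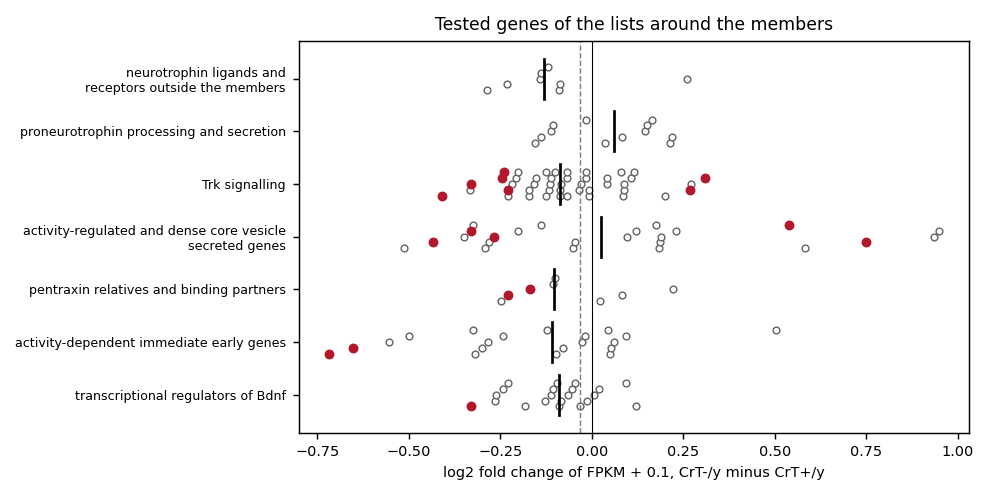
Log2 fold change between genotypes (x axis, log2 of FPKM + 0.1, CrT-/y minus CrT+/y) of each tested gene in the 7 lists around the members (rows), red where called and open elsewhere, with a black bar at each list's median and a dashed line at the median of all tested genes, -0.03. Called genes lie on both sides of 0 for Trk signalling and for the secreted genes, and the farthest below 0 are Homer1 and Egr3.

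The remaining marker lists were set beside the members whose cells they mark. Their counts stand beside 7.25% called lower and 2.90% called higher over all tested genes, and 21.6% whose groups did not overlap. Of 8 interneuron markers, 2 were called higher, Gad1 and Adarb2, and 3 had a log2 fold change below 0, among them Pvalb and Lhx6 (-0.18, with every CrT-/y value under the CrT+/y values), with summed levels of 853 to 993 FPKM in CrT-/y and 919 to 937 FPKM in CrT+/y animals. For the astrocyte list, where Ntrk2 is abundant, 0 of 7 were called, with 1091 to 1201 against 1183 to 1369 FPKM. Of the 8 endothelial and mural markers, some of whose cells express Ngfr or Ntf3, 3 were called lower, Flt1, Pecam1 and Rgs5, with summed levels of 106 to 127 against 124 to 152 FPKM. Of the same list Slco1a4, with 0.15 and no overlap, and Pdgfrb, with 0.03, had log2 fold changes above 0 and were not called. Meningeal fibroblast markers were at 43.5 to 64.0 against 33.7 to 56.3 FPKM, with 1 of 6, Slc6a13, called higher. Among oligodendrocyte markers, 1 of 7, Ermn, was called lower, and the sums were 861 to 1322 against 1201 to 1578 FPKM. Precursor cells had 0 of 4 called, with 64.3 to 77.7 against 78.4 to 84.6 FPKM, and microglia 0 of 6, with 108 to 115 against 111 to 122 FPKM. Hippocampal markers were at 19.7 to 33.4 against 18.5 to 25.0 FPKM. Of the 5 tested, Calb2 was called higher, and 2 had a log2 fold change below 0, Prox1 (-0.11) and Trpc6 (-0.29). C1ql2 and Fibcd1 were highest in CrT-/y animal 2 and CrT+/y animal 3, where Calb2 was at 13.1 and 6.92 FPKM. Among 4 tested olfactory bulb markers Cdhr1 was called higher. The part of these cells and regions in the members' levels was not tested.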

How the data were processed

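Cortical RNA was sequenced as 150 bp paired-end reads from poly(A) libraries, 1 per animal, and the 7 libraries were grouped by the genotype in the labels. The authors aligned the reads to mm10 with the Tuxedo protocol, kept unique alignments on known exons or junctions that had up to 2 mismatches, and deposited FPKM per gene. The submitters' processing notes name Bowtie and Cuffnorm. FPKM are scaled to transcript length and library size and hold no counts, so depth and counting error could not be read from them and no count model was used.

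Genes that averaged 1 FPKM or more were tested as log2(FPKM + 0.1) with limma 3.58.1 (R 4.3.3), with genotype as the only term, a variance trend and Benjamini-Hochberg adjustment across the whole set of tested genes. A gene was called at an adjusted p under 0.1. The added 0.1 understates fold changes of genes near 1 FPKM. Exact two-sided permutation tests used scipy 1.17.1 (Python 3.11.15). Positions and overlaps are from GENCODE M21 (GRCm38), and start windows from RefSeq (GRCm38.p6).

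The alternatives were other pseudocounts, filters, scalings, moderation without a trend, a correction for transcript length, a replicate block, array weights, a threshold of 0.05 and each animal left out. Named genes were the 9 members, Slc6a8, up to 6 called genes or the 3 with the smallest p in each list, and the 3 genes with the nearest profiles, and some of these genes are not reported here. Members and lists were chosen with earlier results of these data known.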

Additional observations from a re-analysis of the deposited data

Results flagged for a closer look

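In 1 of the 35 groups of 4 CrT-/y values examined for the genes above, 1 animal lay far from the other 3. Creb1 was at 10.6 FPKM in CrT-/y animal 2, a gap of 0.877 of the group's range to the nearest of the others, above Dixon's critical value for 4 samples. Chance flags about 1 in 20 such groups. All 4 values were close together next to the difference from the CrT+/y animals, whose lowest was 12.1 FPKM. The groups of 3 CrT+/y values were too small for this rule.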

How the results depend on the processing

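The number of DEGs changed with the settings, from 1318 to 730 with no filter on low values and 366 at an adjusted p under 0.05, and it ran from 64 (without CrT-/y animal 1) to 3733 (without CrT+/y animal 3) when 1 animal was left out. Members called lower numbered 2 with a minimum of 5 FPKM, 0 at an adjusted p under 0.05 and 0 to 1 when 1 animal was left out, and 0 were called higher under any setting. Deviations of same-numbered CrT-/y and CrT+/y animals from their group means had r = -0.0781, 0.046 and -0.051 for numbers 1 to 3. Pairs with unlike numbers ran from -0.202 to 0.247. With so few animals, these values cannot tell whether animals of the same number share a litter or batch. A replicate block on that number, in which CrT-/y animal 0 has no partner and adds nothing to the difference, gave 576 DEGs, or 365 together with the length correction, and 1 member called lower in both. Directions turned for Ntf3 (-0.019 without CrT+/y animal 2, in a range up to 0.51 when 1 animal was left out), for Ntrk2 (0.00211 under upper quartile scaling and 0.011 with the length correction) and for Nptxr (0.00821 and 0.00308 under these settings, 0.000662 without CrT-/y animal 1 and 0.039 without CrT+/y animal 1, in a range of -0.15 to 0.04 when 1 animal was left out), and none of these values was called. Of 693 values of the 34 other named genes under the alternatives, 118 lost and 20 gained a call, and 0 changed sign. The cause of these changes was not tested. Of the 3 nearest genes of each member, 2 or 3 remained under other pseudocounts and scalings, a check added after seeing the data, except for Ntf3 with a pseudocount of 1, where 1 remained. With 7 animals and FPKM values, which carry no counts, changes in Ngfr and Ntf3 smaller than their wide spread could not be seen.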
